A study of Mus musculus with 24 samples.

Results

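The comparison described here set 3 libraries whose table names carry the treatment letter D against 3 vehicle libraries, all from Ocy454 cells after 2 h. Ocy454 is a mouse osteocytic line, which models the cells embedded in bone matrix. The 6 libraries were chosen by name, without any measured value, from the 24 libraries of the series. Each of the 8 groups held 3 libraries: vehicle, each single agent and both agents, at 2 h and at 8 h. The agents were lysophosphatidic acid (LPA) and 1,25-dihydroxyvitamin D (1,25D), whose doses the labels leave out. The titles of the 3 treated libraries carry the letter L and their library names read LPA, while their table names carry D; the other single treatment has the letters the other way round. They are called D-coded libraries below, after their table names, and the libraries titled D are called L-coded. The labels do not tell whether replicates were separate cultures, and p-values then reflect only the library-to-library spread, which may be technical.

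Active vitamin D acts through the vitamin D receptor, a nuclear receptor that pairs with a retinoid X receptor and binds DNA near the genes it regulates. In bone cells it is known for raising Cyp24a1, the enzyme that inactivates the hormone, and Spp1 (osteopontin), an acidic phosphoprotein of bone matrix. LPA is a lipid that signals through G protein-coupled receptors, and such receptors are known for raising immediate early genes such as Fos and Egr1 quickly. Osteocytes secrete FGF23, the hormone that lowers phosphate, and the series asked how both agents act on it.

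Total estimated counts were 33.53 to 33.83 M in the 6 libraries, and mitochondrially encoded genes took 9.01 to 13.34% of them. Vehicle replicate 1 had the lowest mitochondrial share, and it stood apart from the other 2 vehicle libraries: the chi-square per degree of freedom was 35.8 and 36.1 against them, compared with 7.93 between them. Of the markers that define osteocytes, Pdpn was abundant, at 2727 to 3140 estimated counts per library, and Dmp1 was low, at 67 to 111. Phex had 11 to 27 counts, Sost 0 to 2, and Mepe was at 0 in all 6 libraries, so markers of mature osteocytes were low or absent. Markers of other cell types were low but not absent. Summed counts per library were 9 to 34 for the 6 adipocyte markers, 36 to 78 for the 5 of chondrocytes, 59 to 76 for the 5 endothelial ones and 57 to 99 for the 5 of skeletal muscle. Those of the 6 macrophage and blood markers were 468 to 559, nearly all from Cd68, a lysosomal protein not confined to macrophages, at 13.5 to 15.9 CPM. Adipoq and Myod1 had no count in any of the 6 libraries, and Acan, Ptprc and Pecam1 had at most 8 in any of them. A set of colon genes is described with Lypd8.

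Cyp24a1 was read first, because it bears on which agent the D-coded libraries received. It had 0, 0 and 1 estimated counts in the vehicle libraries at 2 h and 2, 5 and 3 in the D-coded ones. The L-coded libraries had 0, 0 and 1, and the libraries with both agents 1, 2 and 3. All 3 D-coded libraries were above all 3 vehicle and all 3 L-coded libraries. The ratio of summed counts, 10 against 1, was 10.3 after scaling for depth, with a 95% exact interval of 1.47 to 449 that covers counting error only. At 8 h the D-coded libraries had 25, 48 and 29 counts, those with both agents 35, 28 and 24, and vehicle and L-coded libraries 0 or 1 each. The transcript therefore followed the letter in the table names and went against the titles. Judged by this transcript, the D-coded libraries were those given 1,25D, while the labels themselves remain in conflict. The edgeR quasi-likelihood test, which carries the p-values below, gave an adjusted p of 0.199 for Cyp24a1 at 2 h, so it did not pass the threshold of 0.05. It passed at 8 h, with a log2 fold change of 6.18 and an adjusted p of 1.285e-05. Every direction below is that of the D-coded libraries against vehicle. The titles of the D-coded libraries carry the letter L, and their library names read LPA.

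**Figure D1:**
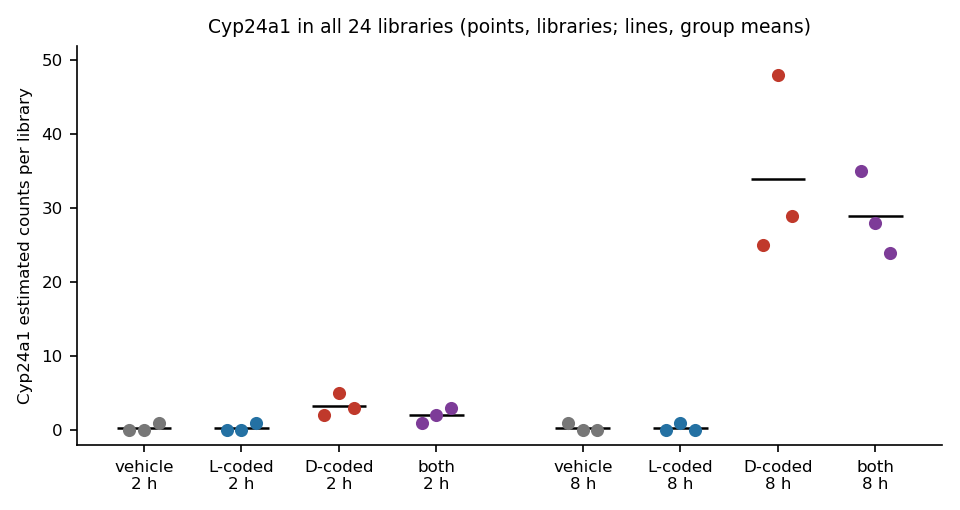
Estimated Cyp24a1 counts (y axis) in each of the 24 libraries (points), with group means as lines, by treatment and time (x axis). At 2 h the D-coded libraries have 2 to 5 counts and vehicle 0 or 1. At 8 h the D-coded libraries have 25 to 48.

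The receptor gene itself did not pass the test at 2 h. Vdr was at 236, 229 and 232 CPM in vehicle and at 257, 212 and 249 CPM in the D-coded libraries, so the groups overlapped, with a log2 fold change of 0.04 ± 0.08 (SE). At 8 h it rose (log2 fold change 1.02, adjusted p = 3.856e-09). Fgf23 was too scarce to compare: it had 1 count in 1 vehicle and 1 count in 1 D-coded library. Il12a, a subunit of interleukin-12, had 6, 7 and 9 counts in vehicle and 14, 4 and 12 in the D-coded libraries, which overlap (adjusted p = 0.623). Lpar1, an LPA receptor gene, was at 66.4, 64.5 and 71.5 CPM in vehicle. It was at 60.1, 56.5 and 62.5 CPM in the D-coded libraries, lower in each without passing the test (log2 fold change -0.18 ± 0.09, adjusted p = 0.373).

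Of 16424 genes tested, 129 passed the threshold (0.785%), with 98 higher (0.597%) and 31 lower (0.189%) in the D-coded libraries. Counts of called members in the gene lists below are to be read against these shares, and some genes are in several lists. The lists were chosen with earlier results of these data known. At such shares most short lists would hold few called members or none. Being the only called member therefore does not set a gene apart from its list. The 98 higher genes had a median log2 fold change of 0.57, and 23 of them at least doubled. The 31 lower genes had a median of -0.39, and 2 of them at least halved, both with a mean under 1 CPM. All 98 and all 31 had replicates that did not overlap between the groups, against 23.4% of all genes tested. These genes were called on the same libraries, so this follows largely from the call and is no added support. A fit with the main component of the within-group deviations as a covariate called 2559 genes. That component was made from the same libraries and is centred within each group. It mainly lowers the residual spread and does not adjust the difference between groups, so the 2559 are no added support. Across genes the D-coded log2 fold changes had a rank correlation of 0.42 in size with the loadings on that component. Leaving out any 1 of the 6 libraries lowered the count, to between 69 and 96. The part of the smaller group in this was not tested. Without vehicle replicate 1, 69 genes passed, 60 higher and 9 lower. Without D-coded replicate 2 the count was 82, and without D-coded replicate 3 it was 71.

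**Figure D2:**
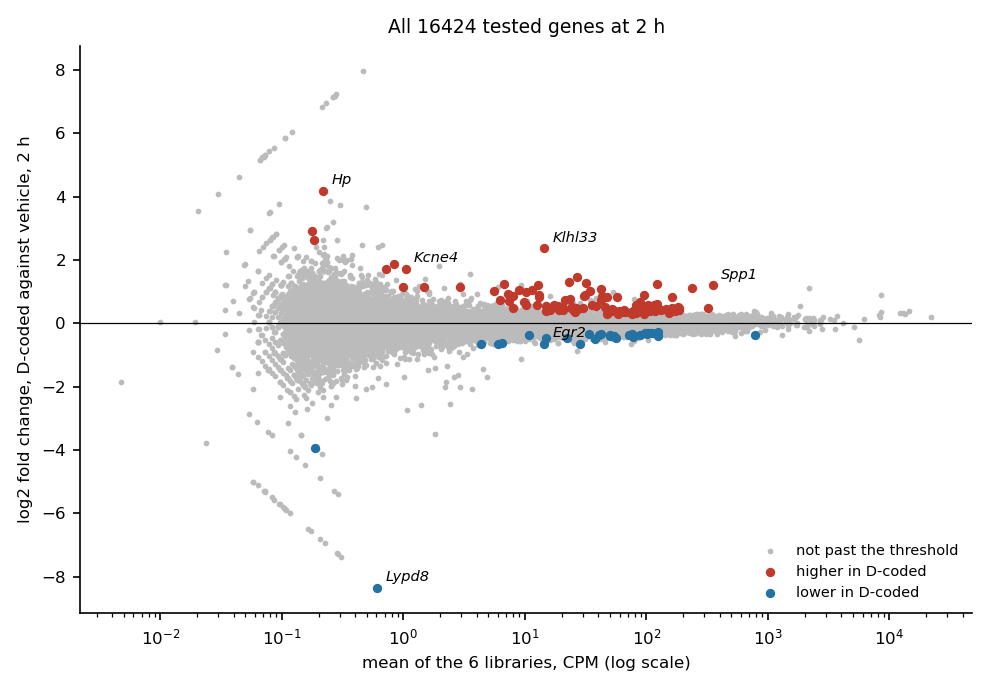
Log2 fold change of the D-coded libraries against vehicle at 2 h (y axis) against the mean of the 6 libraries in CPM (log x axis), 1 point per gene. The 98 genes past the threshold upward lie mostly within 2 log2 units of 0 and the 31 downward mostly within 1. Among these called genes the scarce Hp and Lypd8 lie farthest from 0, upward and downward.

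Klhl33, a member of the kelch-like family of proteins that typically serve as adaptors for ubiquitin ligases, rose most among genes of at least 1 CPM. It was at 4.404, 4.84 and 4.57 CPM in the vehicle libraries and at 24.7, 23.1 and 24.5 CPM in the D-coded ones. The groups lay far apart, with each D-coded library above every vehicle library and little spread within a group. The rise was 5.23-fold (log2 fold change 2.39 ± 0.12, adjusted p = 7.011e-11). Klhl33 was the only one of 27 tested kelch-like genes to pass the test, against 0.785% of all genes tested, and the list's median was 0.01. In the L-coded libraries it was at 2.20 CPM on average, below vehicle, and with both agents at 21.5 CPM. Per length Klhl33 was at a mean of 11.9 TPM in the D-coded libraries.

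Kcne4, a small accessory subunit that inhibits voltage-gated potassium channels, came next. It was at 0.654, 0.377 and 0.408 CPM in vehicle and at 1.30, 2.00 and 1.51 CPM in the D-coded libraries. These were low values that still did not overlap, and the rise was 3.32-fold (log2 fold change 1.73 ± 0.28, adjusted p = 0.00183). The call was lost in a fit of these 2 groups alone (adjusted p = 0.078). It was the only one of 7 tested potassium channel genes past the threshold, against 0.785% of all genes tested. Its promoter is shown because it was the single one among the risers that held a repeat of the type the vitamin D receptor pair is known to bind. That type is a DR3, 2 half-sites in the same direction with 3 bases between them. The half-sites searched were AGGTCA and AGTTCA, and both again with G as the first base, with at most 1 mismatch over a pair, on both strands of the RefSeq promoter windows (GRCm38.p6, 250 bases before to 50 after a start site). The 250 bases before the Kcne4 start are on the plus strand at chr1:78816661-78816910, with the 2 half-sites in capitals, and the repeat lies 138 to 124 bases before the start.
Kcne4: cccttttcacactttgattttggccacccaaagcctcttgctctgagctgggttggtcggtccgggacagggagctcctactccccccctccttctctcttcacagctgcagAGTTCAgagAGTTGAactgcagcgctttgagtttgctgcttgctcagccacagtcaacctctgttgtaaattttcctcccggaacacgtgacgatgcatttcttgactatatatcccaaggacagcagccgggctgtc
A single lower gene, S1pr2, held one as well, in the window at chr9:20976744-20977043, 205 to 191 bases before its start on the minus strand of the chromosome; the gene is the sphingosine 1-phosphate receptor described below. The repeats are set side by side to show how each departs from the half-sites.
Kcne4 repeat: AGTTCAgagAGTTGA
S1pr2 repeat: AGGTCAcctGGGTTA
Of the 98 higher genes 70 had a window and 1 of them held a repeat (1.43%), and of the 31 lower genes 23 had a window and 1 held one (4.35%). Among all 27025 genes with a window, 545 held one (2.02%), so the share among risers was near that of all genes. A match is a description of these letters and not a binding site. Cyp24a1 was not among the windows.

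Genes for a secreted factor, a receptor and membrane enzymes followed. Fst, follistatin, which binds and blocks activins, was at 17.4, 18.8 and 19.9 CPM in vehicle and at 44.4, 43.6 and 47.1 CPM in the D-coded libraries. Its log2 fold change was 1.27 ± 0.07 (adjusted p = 1.322e-10). Fst was the only one of 24 tested genes of the activin, TGF-beta and BMP list to pass, against 0.785% of all genes tested. The list median was -0.10. Gprc5a, an orphan receptor known for its induction by retinoic acid, was at 74.0, 76.3 and 69.6 CPM in vehicle and at 172, 172 and 174 CPM in the D-coded libraries. This was the tightest of the large rises, 2.35-fold with a log2 fold change of 1.23 ± 0.06 (adjusted p = 7.073e-12). The other 2 tested members of its receptor family did not pass.

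Neu3, the sialidase that trims gangliosides at the plasma membrane, was at 3.84, 4.03 and 4.11 CPM in vehicle and at 10.03, 7.91 and 10.6 CPM in the D-coded libraries. It rose 2.38-fold (adjusted p = 1.938e-06) and was the only one of 16 tested sialidase and ganglioside genes to pass, against 0.785% of all genes tested. Gdpd5, a glycerophosphodiesterase that acts on glycerophosphocholine, was at 17.8, 11.03 and 11.3 CPM in vehicle and at 37.0, 28.7 and 33.7 CPM in the D-coded libraries. Vehicle replicate 1 was the highest of its group, and the groups did not overlap (2.47-fold, adjusted p = 0.0103). Without any one of vehicle replicate 2, vehicle replicate 3, D-coded replicate 1 or D-coded replicate 3 the Gdpd5 call was lost, with adjusted p up to 0.074. None of the other 5 tested glycerophosphodiesterases passed, against 0.785% of all genes tested.

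**Figure D3:**
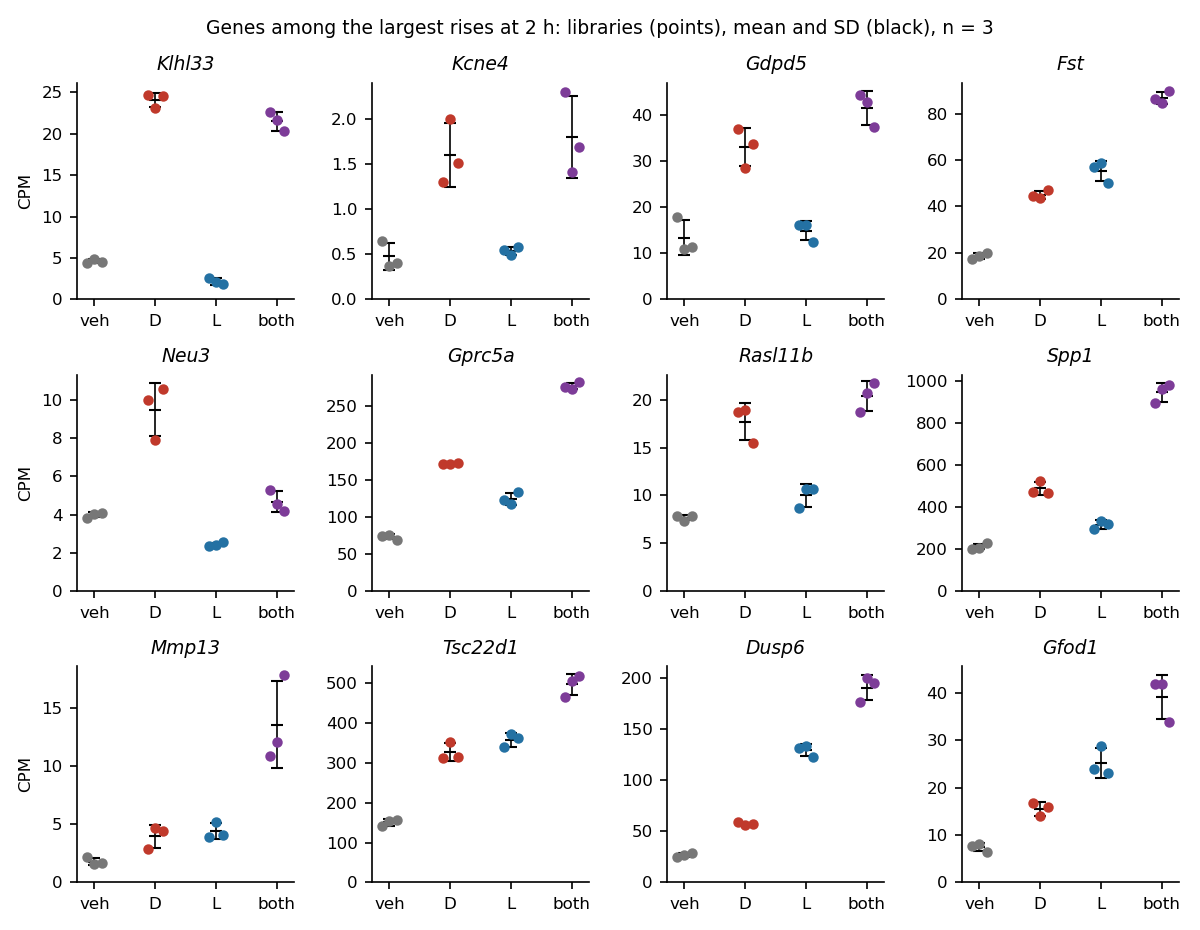
CPM (y axes, from 0) of 12 of the 20 largest rises, in the 12 libraries at 2 h: vehicle (veh), D-coded (D), L-coded (L) and both agents. Points are libraries, and black marks are the mean and SD, n = 3. D-coded libraries do not overlap vehicle in any panel, which the choice of these genes required. Klhl33 and Neu3 are lower in L-coded libraries than in vehicle by mean value.

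Among genes of bone matrix and mineral, Spp1, Mmp13, Enpp1 and Enpp3 rose. Spp1, osteopontin, was at 202, 206 and 228 CPM in vehicle and at 474, 525 and 468 CPM in the D-coded libraries. The groups were well apart, the rise was 2.31-fold (log2 fold change 1.21 ± 0.10, adjusted p = 7.844e-08), and per length Spp1 went from a mean of 203 to 436 TPM, the highest level among the 20 largest rises. Mmp13, the collagenase of the osteoblast lineage, was at 2.16, 1.59 and 1.63 CPM in vehicle and at 2.86, 4.67 and 4.44 CPM in the D-coded libraries. D-coded replicate 1 was the lowest of its group, and the log2 fold change was 1.15 ± 0.21 (adjusted p = 0.00449, and 0.092 in a fit of these 2 groups alone). These were the only 2 of 25 tested bone matrix and osteoblast genes to pass, against 0.785% of all genes tested. The list's median was -0.08. Col1a1 had a log2 fold change of -0.17 ± 0.25 and Runx2 of -0.37 ± 0.18, both without passing.

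Of 14 tested phosphate, pyrophosphate and mineralization genes, 3 rose and 1 fell, against 0.597% and 0.189% of all genes tested. Enpp1, which makes pyrophosphate from ATP, was at 4.06, 5.71 and 5.22 CPM in vehicle and at 9.72, 8.00 and 10.9 CPM in the D-coded libraries (log2 fold change 0.93 ± 0.17, adjusted p = 0.00548). The Enpp1 call was lost without vehicle replicate 1 or D-coded replicate 3, and with counts from length-scaled TPM, with adjusted p up to 0.13. Enpp3, a related ectonucleotide pyrophosphatase, was at 4.80, 6.57 and 5.59 CPM in vehicle and at 9.60, 10.2 and 10.9 CPM in the D-coded libraries (log2 fold change 0.85 ± 0.11, adjusted p = 1.393e-04). Spp1 was the third. Entpd6, a nucleoside diphosphatase, was the gene that fell (log2 fold change -0.65 ± 0.15, adjusted p = 0.0373), and its call was lost when any 1 of the 6 libraries was left out.

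Of the 32 genes listed as vitamin D receptor targets, 23 were tested and 6 rose: Spp1, Enpp3, Enpp1, Mmp13, Slc37a2 and Thbd. None fell, and of all genes tested 0.597% rose. The list's median was 0.36 against 0.002 for all genes. The list was drawn up with earlier results of these data known, so its count is a description. Spp1, Enpp1, Enpp3 and Mmp13 were already counted above among bone matrix or mineralization genes. Slc37a2, a sugar phosphate transporter, rose 1.46-fold (adjusted p = 0.00276). Thbd, thrombomodulin, rose 1.28-fold (adjusted p = 0.0273), a call that only D-coded replicate 3 could be left out of without losing it. Tnfsf11, the osteoclast-inducing ligand RANKL, had 22, 26 and 63 counts in vehicle and 76, 76 and 65 in the D-coded libraries. Vehicle replicate 3 was near the D-coded libraries, and the adjusted p was 0.105. Of the 15 tested osteocyte markers 2 rose and none fell, with a median near 0 (-0.005). Gja1, the gap junction protein connexin 43, rose 1.45-fold (adjusted p = 0.00206). Ackr3, a scavenger receptor for the chemokine Cxcl12, rose 1.51-fold (adjusted p = 0.0039). The calls of Slc37a2 and Ackr3 were lost in a fit of these 2 groups alone, with adjusted p of 0.097 and 0.077.

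Feedback regulators of ERK signalling rose in part. Dusp6, a phosphatase that switches off ERK in the cytoplasm, was at 25.2, 26.3 and 29.0 CPM in vehicle and at 58.5, 56.2 and 57.2 CPM in the D-coded libraries. The rise was 2.14-fold (log2 fold change 1.09 ± 0.08, adjusted p = 1.046e-08). Dusp1, a nuclear phosphatase of the same class, was at 30.4, 30.2 and 31.6 CPM in vehicle and at 62.7, 50.8 and 54.8 CPM in the D-coded libraries (1.83-fold, adjusted p = 1.393e-04). Etv5, an ETS transcription factor, rose 1.43-fold and Errfi1, an inhibitor of the EGF receptor, 1.40-fold. The Etv5 call was lost in a fit of these 2 groups alone (adjusted p = 0.053). These were 4 of 26 tested genes of the list, against 0.597% of all genes tested. None fell, and the list's median was 0.05. Spry2 and Spry4, Sprouty inhibitors of the same pathway, had log2 fold changes of -0.52 ± 0.20 and -1.61 ± 0.52 without passing.

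Smaller signalling genes filled out the 20 largest rises. Tsc22d1, a leucine zipper protein induced by TGF-beta, was at 141, 154 and 156 CPM in vehicle and at 311, 352 and 315 CPM in the D-coded libraries (2.17-fold, adjusted p = 5.180e-09). Rasl11b, a small GTPase of the Ras superfamily, rose 2.31-fold, from a mean of 7.68 ± 0.28 to 17.7 ± 1.94 CPM (SD, n = 3). Relt, a receptor of the tumour necrosis factor family, rose 2.08-fold, and Mrgprf, an orphan receptor of the Mas-related family, 2.05-fold. Gfod1 rose 2.10-fold. The Relt call was lost without vehicle replicate 2 (adjusted p = 0.054) and the Gfod1 call without vehicle replicate 3 (adjusted p = 0.052). Dhrs3, which reduces retinal to retinol, rose 2.02-fold, from 22.6 ± 0.75 to 45.5 ± 4.98 CPM (SD, n = 3). Tmem100, a transmembrane protein, and Gmfb, glia maturation factor beta, each rose 1.87-fold. Ddit4, an inhibitor of the growth kinase mTORC1, rose 1.87-fold as well, from 9.09 ± 0.55 to 17.0 ± 0.92 CPM (SD, n = 3). Of 29 tested cell cycle genes the inhibitors Cdkn1b and Cdkn2b rose, 1.22-fold and 1.25-fold, and none fell. Leaving out any 1 library ended the Cdkn2b call, and leaving out any 1 except D-coded replicate 3 ended that of Cdkn1b.

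Immediate early genes stayed near the vehicle level. Of 26 tested, none rose and 1 fell, the median was -0.10 and the range ran from -0.64 to 0.44. Egr2, a zinc finger transcription factor of the early growth response family, was the one that fell. It was at 18.6, 17.2 and 17.1 CPM in vehicle and at 11.4, 10.8 and 11.8 CPM in the D-coded libraries, which did not overlap (log2 fold change -0.64 ± 0.10, adjusted p = 0.00184). Fos was at a mean of 6.77 CPM in vehicle and 5.85 CPM in the D-coded libraries, and Egr1 at 120 and 84.2 CPM, neither past the threshold. In the L-coded libraries, Fos was at 39.3, Egr1 at 588 and Egr2 at 141 CPM on average. The direct difference between D-coded and L-coded libraries at 2 h passed for 2967 genes (18.1%), 1952 without L-coded replicate 2 and 1927 without D-coded replicate 2. Of the 98 genes higher than vehicle, 55 were higher and 13 lower in the D-coded than in the L-coded libraries. Of the 31 genes lower than vehicle, 17 were lower and 2 higher. Both comparisons share the D-coded libraries. Among the immediate early genes 24 of 26 were lower in the D-coded libraries, with a list median of -2.10.

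NF-kB genes were mixed. Of 28 tested, 2 rose and 2 fell, against 0.597% and 0.189% of all genes tested. The list's median was -0.20. Nfkbia, the main inhibitor of NF-kB, was at 142, 168 and 167 CPM in vehicle and at 204, 228 and 213 CPM in the D-coded libraries (1.35-fold, adjusted p = 0.0153). Ackr3 was the other riser. Nfkbie, the epsilon inhibitor of the same family, went the other way, from 38.1, 34.3 and 32.2 CPM to 23.6, 21.2 and 21.9 CPM (log2 fold change -0.65 ± 0.13, adjusted p = 0.00948). Tnip1, which restrains NF-kB together with the protein A20, went from 93.8, 88.8 and 88.7 CPM to 70.1, 68.8 and 66.4 CPM (log2 fold change -0.40 ± 0.07, adjusted p = 0.00225). The calls of Nfkbia and Nfkbie were lost without vehicle replicate 1, D-coded replicate 2 or D-coded replicate 3, with adjusted p up to 0.2 and 0.077. Against the L-coded libraries, 23 of the 28 were lower in the D-coded ones and 1 was higher.

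**Figure D4:**
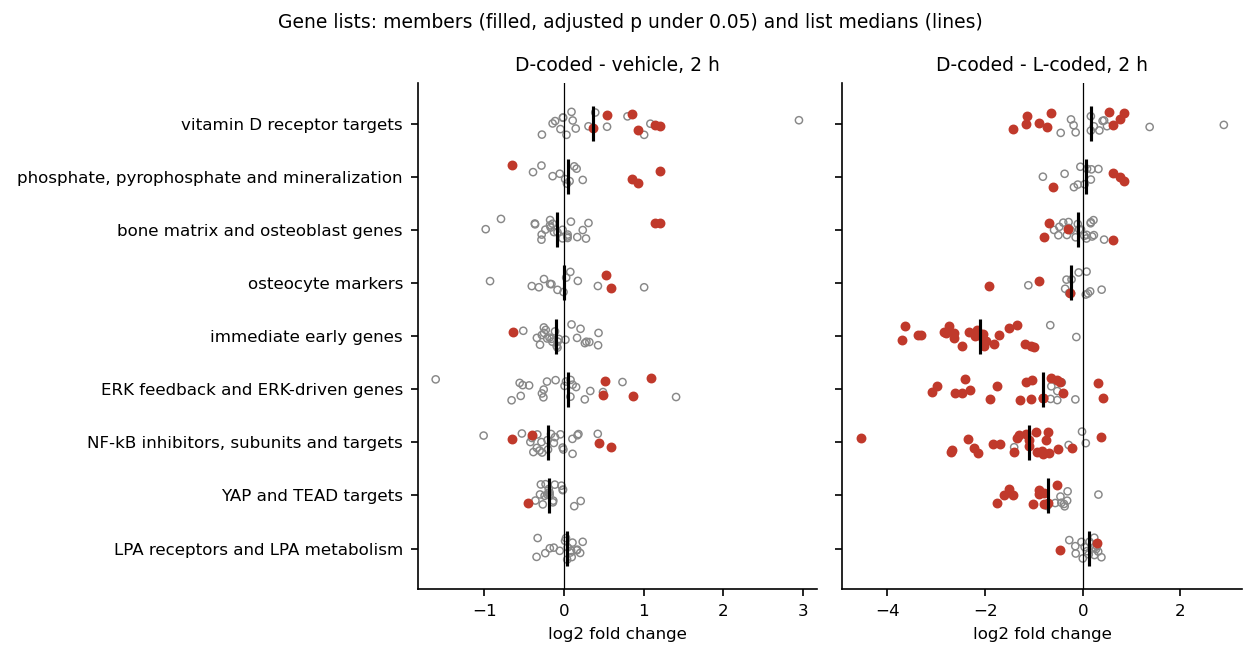
Log2 fold change (x axes) of tested members of 9 gene lists (y axis), for D-coded against vehicle (left) and D-coded against L-coded libraries at 2 h (right). Points are genes, filled where the adjusted p is under 0.05, and lines are list medians. Immediate early genes centre on -0.10 on the left and -2.10 on the right.

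Genes that receive or process LPA did not pass the test. All 18 tested receptor and metabolism genes missed the threshold, with a median of 0.05 and a range from -0.34 to 0.24. Of all genes tested 0.785% passed, so the absence of calls in short lists such as those named here tells little about them. Agpat1, an acyltransferase that uses LPA, was at 80.8 and 83.1 CPM on average in vehicle and D-coded libraries, and the lipid phosphatase Plpp2 was at 62.3 and 66.3 CPM. None of the 18 tested genes of the vitamin D receptor, its partners and vitamin D metabolism passed either. Of 20 tested YAP and TEAD targets none rose and 1 fell, with a median of -0.19, and the 22 tested actin genes of SRF and MRTF had none past the threshold. The abundant Actb had a log2 fold change of 0.00 ± 0.06. Osteoclast support (14 tested), calcium handling (17), Wnt signalling (26), heat shock (11) and stress response genes (16) also had no member past the threshold.

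The falls were shallow. Among genes of at least 1 CPM the largest was that of Zc3h6, a zinc finger protein, from 5.71, 4.89 and 5.33 CPM to 3.44, 3.001 and 3.63 CPM (log2 fold change -0.66 ± 0.15, adjusted p = 0.0282). Dlc1, a GTPase-activating protein, went from 68.2, 65.9 and 62.4 CPM to 49.3, 44.6 and 49.6 CPM (log2 fold change -0.45 ± 0.07, adjusted p = 0.00187). S1pr2, a sphingosine 1-phosphate receptor, went from 63.7, 59.8 and 60.5 CPM to 44.7, 45.4 and 50.1 CPM (adjusted p = 0.0241). Slc22a21, a carnitine transporter, fell by 0.62, Sart3, an RNA-binding protein of the spliceosome cycle, by 0.50, and the helicase Dhx35 by 0.45 on the log2 scale. Acads, the short-chain acyl-CoA dehydrogenase of fatty acid oxidation, fell by 0.45 and the membrane protein Itm2c by 0.44. Of the 12 largest falls, those of Egr2, Dlc1 and Tnip1 held under every alternative tried, and each of the other 9 was lost when 1 or more single libraries were left out, vehicle replicate 1 among them for all but Slc22a21.

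Lypd8, an antimicrobial surface protein of colon epithelium, had the lowest fitted value and was a trace transcript. It had 58, 38 and 30 counts in vehicle and none in any D-coded library, at least 40.6-fold lower against a floor of 3 counts over the group. The L-coded libraries had 1, 0 and 0, and those with both agents 31, 39 and 0. At 8 h the vehicle libraries had only 1, 0 and 1 counts and the D-coded ones 0, 1 and 0. A set of 14 genes known for colon epithelium, Lypd8 among them, was chosen after these values were seen. Their sum was 178 to 300 counts per vehicle library, 38 to 67 per D-coded library, 43 to 99 per L-coded library and 60 to 234 with both agents. Lypd8, Muc3, Epcam, Mptx1 and Gsdmc2 were at 0 in the D-coded libraries. The part of another RNA source in the Lypd8 result was not tested. Fewer cells of a type and less RNA per cell cannot be told apart in such libraries.

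A pair of comparisons that share no library with this one showed how the members recurred. In the first, libraries with both agents were set against L-coded libraries at 2 h, and 126 genes passed (0.767%), 74 without L-coded replicate 3 and 77 without replicate 2 of both agents. Of the 98 higher genes, 61 were also higher there (62.2% of the 98, and 61% of the 100 genes higher in it), and 97 had the same sign. Klhl33 had a log2 fold change of 3.29, Kcne4 of 1.73, Mmp13 of 1.63, Spp1 of 1.58 and Gprc5a of 1.15. Of the 31 lower genes, 7 were also lower (22.6% of the 31, and 26.9% of the 26 lower in it). Egr2 was among them, at -1.11, with Dlc1 at -0.33 and Tnip1 at -0.33. The fall of Lypd8 was not repeated: the value there was 5.69, with an adjusted p of 0.0556.

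In the other, D-coded libraries were set against vehicle at 8 h, and 1971 genes passed (12%), 1088 of them higher. Of the 98 genes higher at 2 h, 86 were higher at 8 h (87.8% of the 98, and 7.9% of the 1088), with a median log2 fold change of 1.03 at 8 h. None of the 98 was called lower. Of the 31 genes lower at 2 h, 11 were lower at 8 h (35.5% of the 31, and 1.25% of the 883 lower at 8 h). In both other comparisons together, 57 of the 98 and 5 of the 31 were called in the same direction. The 8 h count of 1971 fell to 1067 without vehicle replicate 2 of 8 h and to 1051 without D-coded replicate 2 of 8 h, and rose to 3303 without vehicle replicate 3 of 8 h.

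The test of the 8 h effect minus the 2 h effect passed for 1110 genes (6.76%). That count ran from 378 without D-coded replicate 2 of 8 h to 3368 without vehicle replicate 3 of 8 h. Of the 98 higher genes, 46 had a larger rise at 8 h and 4 a smaller one. Mmp13 went from 1.15 at 2 h to 3.42 at 8 h, Enpp3 from 0.85 to 4.09, Enpp1 from 0.93 to 2.79, and Spp1 from 1.21 to 2.58, all as log2 fold changes against the vehicle of the same time. Kcne4, at 1.73 and 1.56, Rasl11b, at 1.21 and 1.03, and Ddit4, at 0.90 and 1.04, had time differences that did not pass. Of the 31 lower genes, 13 had a higher value at 8 h and 1 a lower one by this test. Zc3h6, Entpd6, Sart3, Dhx35 and Itm2c were among the 13, with log2 fold changes between 0.07 and 0.19 at 8 h. The 98 and the 31 were called on the 2 h values that enter this difference. That choice itself favours smaller effects at 8 h, so the 13 do not show a reversal.

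**Figure D5:**
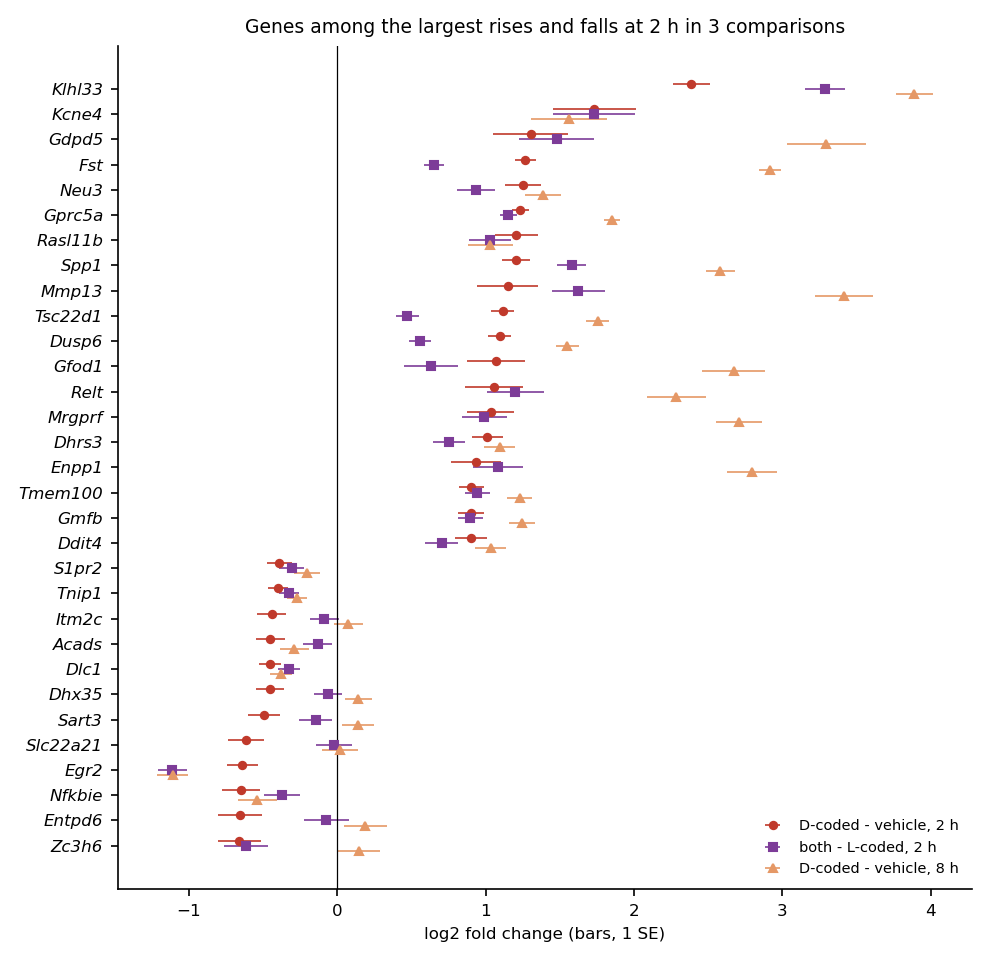
Log2 fold change (x axis, bars 1 SE) of 19 of the 20 largest rises and of the 12 largest falls at 2 h (y axis) in the main comparison (circles), in both agents against L-coded libraries at 2 h (squares) and in D-coded against vehicle at 8 h (triangles). All 19 rises are above 0 in all 3. Of the falls, Egr2, Nfkbie, Acads, Dlc1, Tnip1 and S1pr2 stay below 0 in all 3.

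The interaction at 2 h asked whether the D-coded difference depended on the presence of the other agent, and 6 genes passed (0.0365%). Fst was at a mean of 18.7 CPM in vehicle, 45.0 CPM in D-coded, 55.3 CPM in L-coded and 86.8 CPM in libraries with both agents. Its interaction on the log2 scale was -0.62 ± 0.10 (adjusted p = 0.018), so the fold rise was smaller on top of the other agent. Tsc22d1 had a like pattern, at 150, 326, 358 and 496 CPM, with an interaction of -0.64 ± 0.11 (adjusted p = 0.021). Of 12 left-out libraries, 8 ended the call of Fst and 9 that of Tsc22d1, with adjusted p up to 0.12 and 0.15 over all alternatives. The other 4 were Lypd8, Fcgbp, Sprr2a2 and the pseudogene Eif4a-ps4. Fcgbp, a mucus protein of colon epithelium, had 31, 11 and 13 counts in vehicle, 1, 0 and 0 in D-coded, none in L-coded and 18, 30 and 2 in libraries with both agents. The part of the colon genes in these 4 was not tested. Klhl33, whose added rise was 3.29 against 2.39 alone, did not pass the interaction test.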

How the data were processed

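Total RNA of Ocy454 cells was extracted with an RNeasy Plus kit and made into libraries with a DNBSEQ kit, per the labels' protocols. The authors deposited 2 measures of each transcript, per the file headers: estimated counts, with decimals, and TPM, scaled for effective length and depth. No source used here names the quantifier, and the submitters' processing notes name the build mm39. GENCODE M21 (GRCm38), used to assign transcripts to genes, matched 135078 of 139145 transcripts, with 99.45 to 99.60% of counts. Counts were summed per gene and rounded. edgeR 4.0.16 (quasi-likelihood, TMM, filterByExpr at a minimum count of 10) fitted all 24 libraries in 8 groups without covariates, and p-values are Benjamini-Hochberg adjusted over 16424 genes at a threshold of 0.05. SE is that of the log2 fold change, derived as its absolute value over the square root of the test's F statistic. CPM uses TMM-scaled library sizes. Replicates were not duplicates by a chi-square test of counts, so none was merged. The test was run on simulated data first.

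Genes were named by a rule: Cyp24a1, Vdr, Fgf23, Il12a and Lpar1; the 20 largest rises and 12 largest falls among called genes whose 6 libraries average 1 CPM or more, with a gene name that is not a clone or model number and no overlap of replicates; and up to 6 members of each of 31 gene lists. The members, lists and comparisons were chosen with earlier results of these data known. Other genes named were chosen after their values were seen. Not every gene meeting that rule is reported here. Replicate numbers do not pair the libraries. Alternatives were median-of-ratios scaling, no filter, DESeq2 1.42.0, the compared groups alone, a replicate block, a covariate from within-group deviations, length-scaled TPM counts and each library left out.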

Additional observations from a re-analysis of the deposited data

Results flagged for a closer look

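The effect of the D-coded libraries differed between 2 h and 8 h by the edgeR test of the difference itself for 18 of the genes reported with the largest rises and falls at 2 h. The values are the 8 h minus the 2 h log2 fold change. Rises that were larger at 8 h were those of Mmp13 (2.27), Gdpd5 (1.99), Enpp1 (1.86), Mrgprf (1.67), Fst (1.65), Gfod1 (1.6), Klhl33 (1.5), Spp1 (1.38), Relt (1.23), Tsc22d1 (0.641), Gprc5a (0.616) and Dusp6 (0.457). Falls at 2 h that were higher at 8 h were those of Entpd6 (0.843), Zc3h6 (0.808), Sart3 (0.637), Slc22a21 (0.635), Dhx35 (0.596) and Itm2c (0.516). These genes were chosen by their 2 h falls, which also enter this difference. The choice itself favours a positive value, so the test cannot show a reversal for them. The interaction with the other agent at 2 h passed for Fst (-0.616) and Tsc22d1 (-0.642).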

How the results depend on the processing

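Under all alternatives run, 35 of the 98 higher and 3 of the 31 lower genes were still called, and each kept its sign wherever it was tested. Of 43 named genes past the threshold, 21 kept their call in every alternative. Without a filter on low counts the D-coded effect had 373 genes (185 higher, 188 lower), and with DESeq2 323 (179 and 144). The within-group covariate, made from the same genes and centred within each group, gave 2559 (1182 and 1377), which is no added support. In the compared groups alone 18 genes were lower. The replicate block gave 116 genes (90 higher, 26 lower); same-numbered libraries had correlations of 0.053, 0.029 and 0.009, so the numbers were not used to pair them. Left-out libraries gave 69 to 96 genes, 60 to 76 higher and 8 to 26 lower, and lower calls fell to 16 and 13 without vehicle replicates 2 and 3 and to 8 without D-coded replicate 3.

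For both agents against L-coded libraries the counts were 258 without a filter, 215 with DESeq2, 640 with the covariate, 112 with the replicate block, and 74 to 107 with a library left out. At 8 h they were 3006 without a filter, 565 in the groups alone, 5603 with the covariate, 1899 with the block and 1051 to 3303 with a library left out. The time difference had 3065 without a filter, 2379 with DESeq2, 443 in the groups alone, 5856 with the covariate, 725 with length-scaled TPM, 1036 with the block and 378 to 3368 with a library left out. The interaction had 88 without a filter, 1 in the groups alone, 38 with the covariate, 5 with the block and 0 to 7 with a library left out. D-coded against L-coded had 5847 with the covariate, 2825 with the block and 1927 to 2709 with a library left out. The cause of these changes was not tested. At 2 h counting error alone gave 95% intervals of 1.47 to 449 for the ratio of Cyp24a1 counts and 0.0132 to 81.1 for that of Fgf23.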

Other observations

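Of the 98 higher genes, 6 averaged under 1 CPM. The difference between the 8 h and 2 h effects passed the test for Inmt and Cbs and not for the other 4. Inmt, an indole N-methyltransferase, had 17, 9 and 11 counts in vehicle and 47, 41 and 44 in the D-coded libraries at 2 h (log2 fold change 1.87, adjusted p = 0.00193), and its log2 fold change at 8 h was 5.74. Cbs, cystathionine beta-synthase, which starts the conversion of homocysteine to cysteine, had 24, 19 and 21 against 40, 47 and 50 counts (log2 fold change 1.14, adjusted p = 0.00193) and 5.19 at 8 h. Krt17, a keratin, had 3, 2 and 0 against 11, 7 and 14 counts, and its log2 fold change was 2.64 at 2 h and 5.43 at 8 h. Hp, haptoglobin, had 0, 0 and 2 against 18, 10 and 14 counts, a ratio of summed counts of 21.7 with a 95% exact interval of 5.65 to 185 for counting error only. At 8 h its ratio was 5.25 (3.64 to 7.76), with 35 counts over the vehicle and 187 over the D-coded libraries. Foxl1, a forkhead transcription factor, had 1, 3 and 0 against 13, 12 and 7 counts, with a log2 fold change of 2.93 at 2 h and 1.59 at 8 h. Pbp2 had 11, 8 and 16 against 39, 45 and 28 counts, with values of 1.71 and 2.11. In the L-coded libraries at 2 h, Foxl1 had 17, 20 and 13 counts, Pbp2 26, 21 and 31, and Hp 5, 11 and 4. Krt17 had 7, 3 and 1 there, Inmt 13, 15 and 33, and Cbs 27, 15 and 25. Counts of Foxl1, Pbp2 and Hp were thus above vehicle with the other agent alone as well, a difference that was not tested.

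Further genes among the 98 were picked after their values were seen, as single examples and not as a group. Insig2 is a protein of the endoplasmic reticulum that holds back the transcription of sterol synthesis genes. It was at 40.0, 43.4 and 48.1 CPM in vehicle and at 57.6, 62.7 and 59.3 CPM in the D-coded libraries (log2 fold change 0.45, adjusted p = 0.0157). Hsd17b7, an enzyme of cholesterol synthesis, had a log2 fold change of 0.40 (adjusted p = 0.00193). Crabp2, a carrier of retinoic acid, was at 64.1, 69.9 and 69.2 CPM against 101, 121 and 104 CPM (log2 fold change 0.68, adjusted p = 0.00359). Npr3, the clearance receptor for natriuretic peptides, was at 20.1, 20.3 and 24.6 CPM against 40.8, 39.2 and 38.6 CPM (log2 fold change 0.87, adjusted p = 1.448e-07).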
